A study of Mus musculus with 6 samples.

Results

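The pre-mRNA splicing genes described here are those whose symbol begins with *Snrp*, *Srsf*, *Sf3a*, *Sf3b* or *Hnrnp*, taken from array probe sets that the platform annotation pairs with a single gene. They number 44 of the 12393 genes on the array with such a probe set, and comprise 8 *Snrp*, 9 *Srsf*, 3 *Sf3a*, 6 *Sf3b* and 18 *Hnrnp* genes. Each gene was read by the probe set with the highest mean over the 6 arrays, out of 115 probe sets for these genes. No measured difference thus entered the choice of probe set. The gene families, and the lists of other genes used below, were chosen with earlier results of these data known. All 44 passed the filter on low values, which left 8693 genes for testing. Symbols of these families that occur only on probe sets shared with another gene are *Hnrnpa1l2-ps2*, *Hnrnpa3*, *Snrpa*, *Snrpd1* and *Snrpd2*, and were not analysed here.

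RNA came from the thymus of untreated C57BL6 mice of 3 weeks, all of them CD3e-/-, which lack a working pre-T cell receptor, so that their thymocytes stop at the immature DN3 stage. The 3 arrays labelled SCLtg LMO1tg are described as carrying the transgenes Sil-SCL and Lck-LMO1. These place the leukemia oncogenes SCL and LMO1 under the Sil promoter and under the T-lineage promoter of Lck. The 3 arrays labelled control are described as CD3e-/- without these transgenes. The value of *Lmo1*, given below, goes against this assignment. Whether the arrays of a group stand for different mice is not given in the labels. A p-value here reflects the spread between these arrays and no more, and that spread may be technical.

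Splicing removes introns from pre-mRNA on the spliceosome, a machine assembled from small nuclear RNA-protein particles (snRNPs). The *Snrp* genes encode the Sm proteins that ring most of the small nuclear RNAs and proteins particular to the U1 or U2 particle, while *Sf3a* and *Sf3b* genes encode the U2-associated complexes that hold the branch point. SR proteins (*Srsf*) bind exons and mostly promote their inclusion, hnRNP proteins coat nascent RNA and often act against them, and the balance of both sets alternative exons, in T cells among them those of the phosphatase CD45.

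The promoter sequence of the member with the largest absolute difference in each family is printed here. None of these members was called in the test below. Each covers 300 bases, most of them upstream of an annotated start, from RefSeq on GRCm38.p6, and for *Hnrnpa2b1* the first of its 2 listed starts is shown. Capitals mark CCGGAA or its reverse complement TTCCGG, the core letters of sites for ETS factors.
Snrpa1, chr7:66060086-66060385, plus strand: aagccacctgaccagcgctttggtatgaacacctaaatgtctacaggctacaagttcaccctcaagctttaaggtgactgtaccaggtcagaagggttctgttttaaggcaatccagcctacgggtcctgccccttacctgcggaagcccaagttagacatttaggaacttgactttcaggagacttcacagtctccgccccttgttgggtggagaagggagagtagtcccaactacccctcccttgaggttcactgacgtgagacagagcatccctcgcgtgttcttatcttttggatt
Srsf1, chr11:88047123-88047422, plus strand: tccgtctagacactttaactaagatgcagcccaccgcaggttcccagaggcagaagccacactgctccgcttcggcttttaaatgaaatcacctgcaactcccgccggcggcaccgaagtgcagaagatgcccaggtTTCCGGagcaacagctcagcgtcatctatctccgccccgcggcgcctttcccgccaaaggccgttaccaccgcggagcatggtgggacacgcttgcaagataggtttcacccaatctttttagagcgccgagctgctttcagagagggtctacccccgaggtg
Sf3a3, chr4:124714611-124714910, plus strand: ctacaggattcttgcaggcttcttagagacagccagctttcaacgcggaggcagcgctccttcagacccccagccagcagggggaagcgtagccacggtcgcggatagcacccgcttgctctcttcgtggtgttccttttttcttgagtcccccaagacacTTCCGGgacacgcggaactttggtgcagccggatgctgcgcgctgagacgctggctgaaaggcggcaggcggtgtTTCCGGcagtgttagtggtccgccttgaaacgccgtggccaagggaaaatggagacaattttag
Sf3b6, chr12:4817358-4817657, plus strand: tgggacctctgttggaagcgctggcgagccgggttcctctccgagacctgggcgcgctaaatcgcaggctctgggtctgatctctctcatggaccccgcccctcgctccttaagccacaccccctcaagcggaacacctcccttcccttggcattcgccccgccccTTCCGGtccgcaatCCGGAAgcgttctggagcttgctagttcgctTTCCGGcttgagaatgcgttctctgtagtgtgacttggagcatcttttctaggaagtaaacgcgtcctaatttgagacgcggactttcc
Hnrnpa2b1, chr6:51469845-51470144, minus strand: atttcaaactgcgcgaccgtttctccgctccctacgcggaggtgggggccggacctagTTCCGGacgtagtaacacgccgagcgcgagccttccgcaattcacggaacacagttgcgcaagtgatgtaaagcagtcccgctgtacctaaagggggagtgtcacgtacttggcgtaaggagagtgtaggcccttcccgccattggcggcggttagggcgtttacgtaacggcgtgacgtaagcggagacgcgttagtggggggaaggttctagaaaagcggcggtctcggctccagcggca
These letters occurred 3 times in the window of *Sf3b6*, 2 times in that of *Sf3a3*, once each in those of *Srsf1* and *Hnrnpa2b1*, and not in that of *Snrpa1*. RefSeq listed 55 promoters for 39 of the members, and 52.7% of them held CCGGAA on either strand, against 14.9% of all 32851 promoters of that length. GGGCGG, the core of Sp1-type sites, was in 67.3% against 35.7%, and CCAAT in 45.5% against 37.4%. The E-box CAGGTG, a sequence that SCL and its E protein partners can bind, was in 18.2% of the members' promoters and in 20.2% of all, and the E-box CACGTG, which MYC can bind, in 7.27% and 7.15%. None of the 5 searched words contains another. Windows of the same gene can overlap and then hold the same site, as those of *Sf3b2* do, yet each counts as a promoter. The promoters of all genes were not matched to the members by base content or level. These shares were not tested. The 23 members with CCGGAA had a median log2 difference between the groups of 0.29 and the 16 without it one of 0.32, so the word did not separate members by their difference.

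Values are log2 intensities, and every difference below is the mean of the arrays labelled SCLtg LMO1tg minus the mean of those labelled control. *Lmo1* goes against these labels: it was at 5.01 ± 0.14 (SD, n = 3) in the arrays labelled SCLtg LMO1tg and at 6.75 ± 0.10 (SD, n = 3) in those labelled control, a difference of −1.74 (SE 0.14, adjusted p = 8.3e-04, limma). The directions here also oppose those of the study's list of changed genes. *Cpa3*, a mast cell protease which that list gives as higher with the transgenes, differed by −2.53 (SE 0.16, adjusted p = 7.6e-05, limma). *Ptcra*, the gene of the pre-T cell receptor alpha chain, is described in the study as inhibited by SCL. It was at 10.35, 10.32 and 10.39 in the arrays labelled SCLtg LMO1tg and 9.36, 8.96 and 8.90 in those labelled control. The difference of 1.28 (adjusted p = 0.013, limma) thus also ran against the labels. *Tal1*, which encodes SCL, was under the filter and untested, and ran the way of the labels, at 4.55, 4.63 and 4.71 in the arrays labelled SCLtg LMO1tg and 4.35, 4.27 and 4.44 in those labelled control. The sources used here do not tell if these probe sets detect the transgenes' transcripts. Labels are used as they stand, and each direction below is that of the labels. If the labels were exchanged, every direction given here would be reversed. Whether they were was not tested.

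The arrays also differ in a technical respect. By the signal of 9 bacterial hybridization control probe sets, SCLtg LMO1tg 1, control 2 and control 3 form a high set (10.56 to 10.78), and SCLtg LMO1tg 2, SCLtg LMO1tg 3 and control 1 a low set (9.12 to 9.78). Both groups occur in both sets, and values within each set are given beside the results. The log2 excess of the 3′ over the 5′ probe sets of *Gapdh*, a sign of RNA quality, was 3.51, 3.12 and 3.10 in the arrays labelled SCLtg LMO1tg and 3.17, 2.38 and 3.01 in those labelled control. For *Actb* it was 2.71, 2.26 and 2.54 against 2.52, 1.48 and 2.86. Control 2 was thus lowest by both genes, while control 3 was highest by *Actb*. Every array had such an excess in both genes. By the study's methods the RNA was amplified before hybridization, and the part of that step in the excess was not tested. Markers of DN3 thymocytes averaged 9.77 to 10.09 and 9.45 to 9.73 in the 2 groups. Of 9 measured, 8 lay higher in the arrays labelled SCLtg LMO1tg, with a median difference of 0.15. The 1 called was *Ptcra*, also higher there, which the study describes as inhibited by SCL. *Rag1* and *Rag2* differed by 0.97 and 0.82, whereas *Il2ra* and *Dntt* were near 0, at 0.01 and 0.02, and *Cd3g* was at −0.18. Markers of double positive thymocytes averaged 4.48 to 4.75 and 4.75 to 4.91. The list of 10 neutrophil markers averaged 6.80 to 7.61 and 5.71 to 6.42, with no call in limma and a median difference of 1.44. In each hybridization set this list averaged more in the arrays labelled SCLtg LMO1tg, with a mean gap of 1.5 among low-set arrays and 0.91 among high-set arrays. Erythroid markers averaged 6.24 to 6.97 and 6.03 to 6.17, and B cell markers 5.13 to 5.29 and 5.36 to 5.59. The part of these cell types in the results was not tested. The study's methods describe the RNA as that of thymocytes. In RNA pooled over cells of several types, fewer cells of a type and less RNA per cell cannot be told apart.

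No member passed the test on its own: 0 of the 44 members reached an adjusted p under 0.05 in limma, where 14 of all 8693 genes did (0.161%). The direction was nevertheless uneven. The difference was above 0 for 39 members, 88.6%, against 48.7% of all genes tested, and the median difference was 0.31, with a range of −0.20 to 0.74, against −0.01 over all genes. At an unadjusted p under 0.05, 10 members (22.7%) lay higher in the arrays labelled SCLtg LMO1tg and 0 lay lower, where 6.3% and 3.14% of all genes did. The groups did not overlap, with the SCLtg LMO1tg arrays on the higher side, for 6 members (13.6%; 7.32% of all genes), and on the lower side for 0 (6.37% of all genes). Rank products, the test of the study's methods, called 0 members and 87 genes in all (1%) at a percentage of false positives under 0.1, a looser threshold than the study's, and without its filter on absent calls. The 10 at an unadjusted p depended on single arrays. Without SCLtg LMO1tg 3, control 2 or control 3 there were 2 (4.55%), where 2.8%, 3.62% and 4.36% of all genes lay higher at that p, so the members' share was then close to that of all genes. Without SCLtg LMO1tg 2 there were 5 (11.4%, and 3.34% of all genes), without SCLtg LMO1tg 1 there were 16 (36.4% and 9.87%), and without control 1 there were 15 (34.1% and 13.5%). With arrays left out in turn, the median of all members was lowest, 0.15, without SCLtg LMO1tg 3, while at least 37 members stayed above 0.

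**Figure D1:**
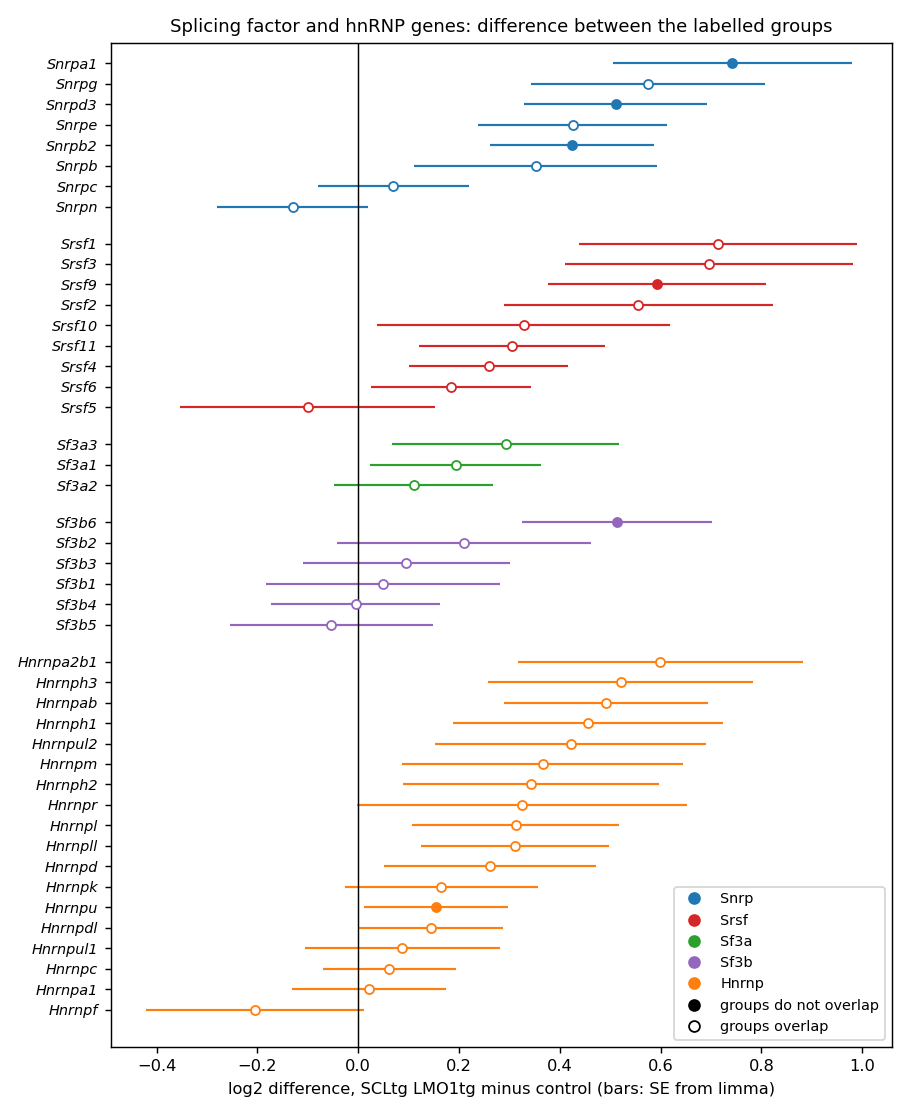
Log2 difference of the 44 members, arrays labelled SCLtg LMO1tg minus control, with the SE from limma as bars, grouped and coloured by family; filled points are the 6 members whose groups do not overlap. Only 5 points lie left of 0, and the largest difference is that of Snrpa1, 0.74.

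Other abundant transcripts leaned the same way. Of all genes in the top 25% by mean level, 72.3% had a difference above 0 with a median of 0.15, whereas in the bottom 25% of genes 26.9% did with a median of −0.10. In that top class lay 34 of the members, of which 31 (91.2%) were above 0, with a median of 0.29. The SD of the log2 values over genes was 1.44 and 1.48 in SCLtg LMO1tg 2 and 3 and 1.43 in control 1, against 1.31 to 1.36 in the other 3 arrays, which make up the high set. When the arrays were quantile normalized once more, which gives them the same spread, 33 members were above 0 with a median of 0.18. The family medians were then 0.33 for *Snrp*, 0.20 for *Srsf*, 0.12 for *Sf3a*, −0.08 for *Sf3b* and 0.15 for *Hnrnp* genes. By this scaling 25 of the 34 members in the top class (73.5%) were above 0, against 51% of all its genes. The comparison by level covers only the direction and size of differences, and was chosen after the values were seen. The shares at an unadjusted p and without overlap stand beside genes of all levels. They were not compared by level. All members share the same 6 arrays, so these shares are a description of 6 arrays and not a test of the list.

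**Figure D2:**
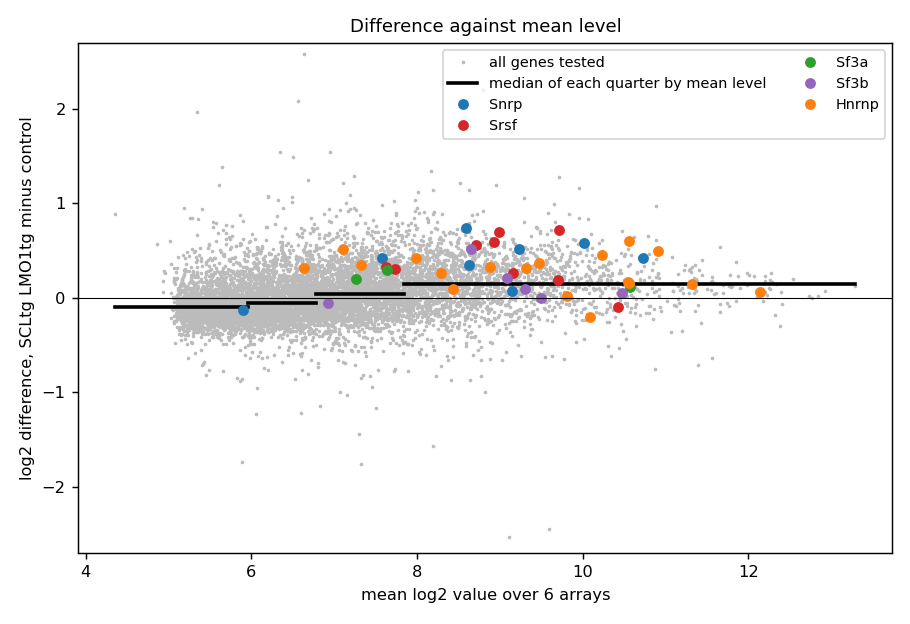
Log2 difference against the mean log2 value over 6 arrays, with 1 grey point per gene tested, members coloured by family and a black line at the median of each 25% of genes by mean level. The medians run from −0.10 in the lowest class to 0.15 in the highest, where 34 members lie.

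The Sm proteins, the ring shared by most spliceosomal particles, are represented by *Snrpb*, *Snrpd3*, *Snrpe*, *Snrpg* and *Snrpn*. *Snrpd3* was at 9.49, 9.46 and 9.51 in the arrays labelled SCLtg LMO1tg and at 9.32, 8.63 and 8.98 in those labelled control. The 3 former arrays lay close together and above every control array, of which control 1 was nearest. The difference was 0.51 (SE 0.18, adjusted p = 0.416). *Snrpg* was at 10.33, 10.06 and 10.53 against 10.26, 9.38 and 9.56, a difference of 0.57 (SE 0.23, adjusted p = 0.487). Here control 1 lay between the SCLtg LMO1tg arrays, and the groups overlapped. *Snrpe* overlapped through control 1 as well, at 10.83, 10.90 and 11.09 against 10.87, 10.20 and 10.47, with a difference of 0.43 (SE 0.19, adjusted p = 0.521).

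*Snrpb* encodes SmB, and *Snrpn*, an imprinted gene known for its expression in brain, encodes a near-identical protein that can take its place in the ring. *Snrpb* was at 8.90, 8.80 and 8.69 against 8.68, 8.83 and 7.83, a difference of 0.35 (SE 0.24, adjusted p = 0.638) that rested on the low value of control 3. *Snrpn* was at 5.94, 5.72 and 5.82 against 5.75, 6.01 and 6.11, a difference of −0.13 (SE 0.15, adjusted p = 0.755), the 1 *Snrp* gene below 0. Both genes overlapped between the groups. Because the transcripts are alike in parts, the signals of their probe sets may not be fully separate.

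Of the proteins bound to a single particle, *Snrpa1* had the largest difference of all members. Its product binds U2 RNA together with that of *Snrpb2*. *Snrpa1* was at 8.75, 9.07 and 9.07 in the arrays labelled SCLtg LMO1tg and at 8.68, 7.69 and 8.29 in those labelled control, a difference of 0.74 (SE 0.24, adjusted p = 0.378). The groups did not overlap, although SCLtg LMO1tg 1 and control 1 were close. *Snrpb2* was also higher in each SCLtg LMO1tg array than in any control array, at 7.76, 7.74 and 7.88 against 7.63, 7.13 and 7.35, with a difference of 0.42 (SE 0.16, adjusted p = 0.457). *Snrpc*, whose product helps the U1 particle to recognize the start of an intron, differed by 0.07. Over the 8 *Snrp* genes the median difference was 0.42, 7 lay above 0, 5 had an unadjusted p under 0.05, and 0 were called. Of all genes 48.7% lay above 0, and 6.3% lay higher and 3.14% lower at that p.

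The SF3A and SF3B complexes belong to the same U2 particle, and apart from *Sf3b6* their differences lay between −0.05 and 0.29. Its product, a small subunit near the branch point adenosine, had 8.86, 8.96 and 8.92 against 8.82, 8.21 and 8.16, a difference of 0.51 (SE 0.19, adjusted p = 0.436). Every SCLtg LMO1tg array lay above every control array, with control 1 just under them. *Sf3b1*, the subunit that clasps the branch point and is often mutated in myelodysplasia, was at 10.14, 10.54 and 10.82 against 10.75, 10.60 and 10.01, and the difference was 0.05 (SE 0.23, adjusted p = 0.943). Its arrays were fully interleaved. *Sf3b3*, the scaffold subunit, was at 9.17, 9.42 and 9.45 against 9.35, 9.59 and 8.81, a difference of 0.10 (SE 0.20, adjusted p = 0.870). *Sf3b2*, a subunit that contacts RNA upstream of the branch point, was at 9.27, 8.88 and 9.41 against 9.11, 8.41 and 9.41, with a difference of 0.21 (SE 0.25, adjusted p = 0.761). These 2 subunits overlapped between the groups as well. *Sf3b5*, a small subunit, was at 7.20, 6.93 and 6.56 against 6.77, 6.83 and 7.26, a difference of −0.05 (SE 0.20, adjusted p = 0.930), and *Sf3b4* differed by −0.01. The median over the 6 *Sf3b* genes was 0.07 and turned to −0.08 after the second quantile normalization.

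The *Sf3a* genes encode the 3 subunits that join the U2 particle together with SF3B. *Sf3a3* was at 7.65, 7.88 and 7.81 against 7.80, 7.73 and 6.93, a difference of 0.29 (SE 0.23, adjusted p = 0.662) that control 3 alone carried. *Sf3a1* was at 7.06, 7.45 and 7.58 against 7.24, 7.24 and 7.02, a difference of 0.19 (SE 0.17, adjusted p = 0.689). *Sf3a2* was at 10.71, 10.57 and 10.59 against 10.77, 10.30 and 10.48, a difference of 0.11 (SE 0.16, adjusted p = 0.804). All 3 overlapped between the groups, and their median difference was 0.19.

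Among SR proteins, *Srsf1*, the founding member and a known oncoprotein when overproduced, was at 9.56, 10.10 and 10.57 in the arrays labelled SCLtg LMO1tg and at 9.80, 9.29 and 8.99 in those labelled control. SCLtg LMO1tg 3 was the highest array and SCLtg LMO1tg 1 lay below control 1, so the groups overlapped. The difference was 0.71 (SE 0.28, adjusted p = 0.459). *Srsf3*, which also takes part in mRNA export, was at 9.02, 9.16 and 9.84 against 9.25, 8.35 and 8.34, a difference of 0.70 (SE 0.28, adjusted p = 0.496), again with control 1 among the SCLtg LMO1tg arrays. *Srsf9*, a close relative of *Srsf1*, was at 9.24, 9.22 and 9.22 against 9.08, 8.67 and 8.15. The SCLtg LMO1tg arrays were nearly equal and above all controls, which spread widely, and the difference was 0.59 (SE 0.22, adjusted p = 0.436).

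*Srsf2*, which binds exonic enhancers and is mutated in some myeloid neoplasms, was at 8.33, 9.21 and 9.43 against 8.61, 8.16 and 8.53, a difference of 0.56 (SE 0.27, adjusted p = 0.547). *Srsf10*, an SR protein that represses splicing when dephosphorylated, was at 7.16, 7.88 and 8.32 against 7.56, 7.04 and 7.79, a difference of 0.33 (SE 0.29, adjusted p = 0.694) that was 0.061 without SCLtg LMO1tg 3, 0.12 without control 2 and 0.64 without SCLtg LMO1tg 1. In both genes SCLtg LMO1tg 2 and 3 were above every control array and SCLtg LMO1tg 1 was among the controls. *Srsf4*, *Srsf6* and *Srsf11* differed by 0.26, 0.18 and 0.31. *Srsf5*, singled out after its values were seen, was at 9.72, 10.73 and 10.69 against 10.35, 10.51 and 10.57, the 1 *Srsf* gene below 0 with −0.10 (SE 0.25, adjusted p = 0.890). There SCLtg LMO1tg 1 was the lowest of all arrays and SCLtg LMO1tg 2 and 3 the highest. Over the 9 *Srsf* genes the median difference was 0.33, 8 lay above 0, 3 had an unadjusted p under 0.05, and 0 were called. The shares of all genes were 48.7% above 0, and 6.3% higher and 3.14% lower at that p.

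**Figure D3:**
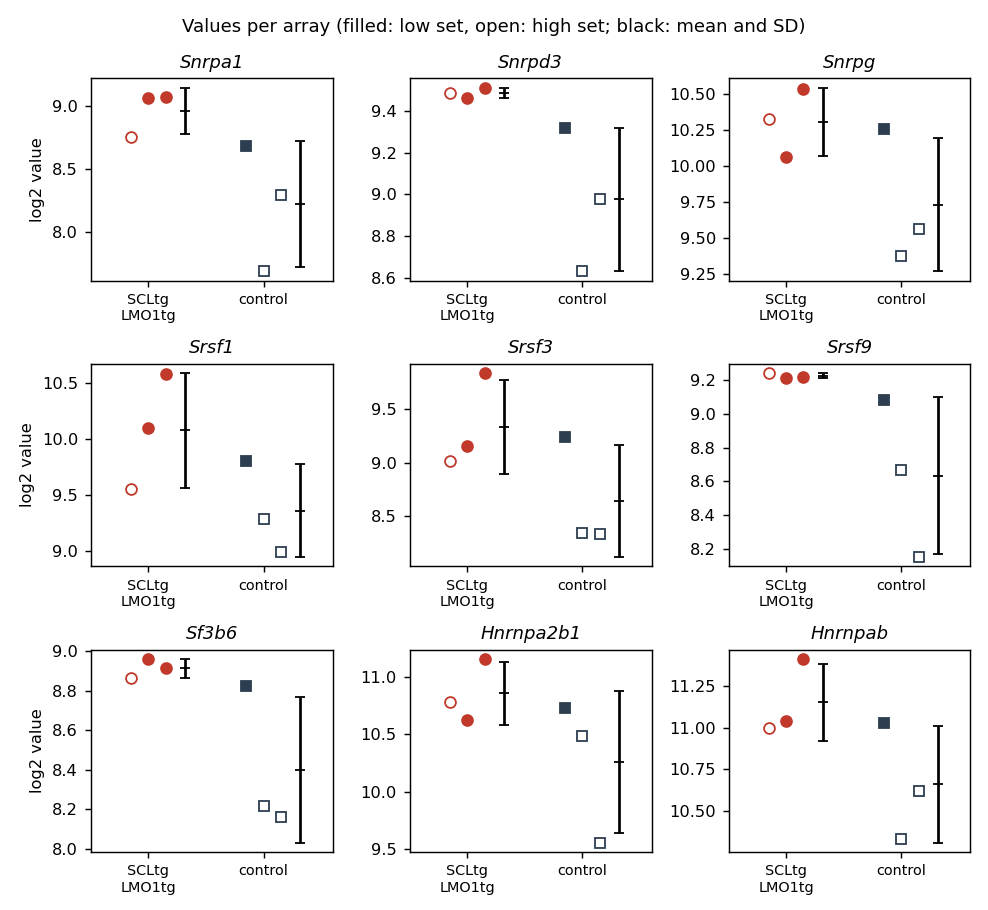
Log2 values per array of 9 members, with SCLtg LMO1tg arrays as red circles and control arrays as dark squares (arrays 1 to 3 from left to right), filled for the low and open for the high hybridization set, and mean ± SD in black on an axis of its own range per panel. Control 1, the filled square, is the highest control array in all 9 panels.

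The 18 *Hnrnp* genes had a median difference of 0.31, 17 lay above 0, 1 had an unadjusted p under 0.05 and 0 were called. Among all genes 48.7% lay above 0, and 6.3% lay higher and 3.14% lower at that p. *Hnrnpa2b1*, an A/B-type protein that binds splice silencers and guides RNA transport, was at 10.78, 10.63 and 11.16 against 10.73, 10.49 and 9.56, a difference of 0.60 (SE 0.28, adjusted p = 0.542). Control 3 lay far below every other array, and the groups overlapped through control 1. Without control 3 the difference was 0.25. *Hnrnpab*, a related RNA-binding protein, was at 11.00, 11.04 and 11.42 against 11.03, 10.33 and 10.62, a difference of 0.49 (SE 0.20, adjusted p = 0.499). Here control 2 and control 3 were the low arrays. *Hnrnpa1*, the classical antagonist of *Srsf1* at alternative splice sites, differed by only 0.02 (SE 0.15, adjusted p = 0.963).

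The F/H proteins bind G-rich runs near exons. *Hnrnph3* was at 6.82, 7.64 and 7.62 against 7.23, 6.85 and 6.43, a difference of 0.52 (SE 0.26, adjusted p = 0.566), and *Hnrnph1* at 9.85, 10.64 and 10.89 against 10.36, 9.90 and 9.75, a difference of 0.46 (SE 0.27, adjusted p = 0.604). *Hnrnpul2*, a relative of the nuclear scaffold protein hnRNP U, was at 7.68, 8.57 and 8.34 against 8.20, 7.80 and 7.33, a difference of 0.42 (SE 0.27, adjusted p = 0.625). In all 3 genes SCLtg LMO1tg 2 and 3 were the highest arrays, and SCLtg LMO1tg 1 lay among the controls. *Hnrnpf*, of the same F/H group, had the lowest difference of all members, −0.20 (SE 0.22, adjusted p = 0.730), by the probe set used, while its other 3 probe sets past the filter were above 0, from 0.23 to 0.31. *Hnrnpu* itself differed by 0.15 without overlap of the groups, and *Hnrnpc*, *Hnrnpk* and *Hnrnpl* by 0.06, 0.17 and 0.31. *Hnrnpll*, known to repress variable exons of CD45 in lymphocytes, differed by 0.31 (SE 0.19, adjusted p = 0.614), and *Ptprc*, the CD45 gene, by 0.18 (SE 0.20, adjusted p = 0.748). These probe sets do not resolve exons, and isoforms were not measured here.

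The families differed in which arrays carried their direction. The mean deviation of all members from their own means was −0.05, 0.15 and 0.33 in SCLtg LMO1tg 1, 2 and 3, and 0.05, −0.22 and −0.27 in control 1, 2 and 3. The groups thus overlapped through SCLtg LMO1tg 1 and control 1, each of which is the 1 array of its group in its hybridization set. For all genes tested these means stayed between −0.03 and 0.03. For *Snrp* genes they were 0.20, 0.13 and 0.23 against 0.07, −0.37 and −0.26, with no overlap between the groups. For *Srsf* genes they were −0.18, 0.27 and 0.50 against 0.01, −0.33 and −0.27, so that SCLtg LMO1tg 1 lay with the controls. Without SCLtg LMO1tg 1 the median difference was 0.58 for *Srsf*, 0.49 for *Hnrnp* and 0.34 for *Sf3a* genes, without SCLtg LMO1tg 3 it was 0.15 for *Hnrnp* and 0.13 for *Sf3a* genes, and without control 3 it was 0.21 and 0.095 for those 2 families. The *Snrp* median stayed between 0.32 and 0.58 whichever array was left out.

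**Figure D4:**
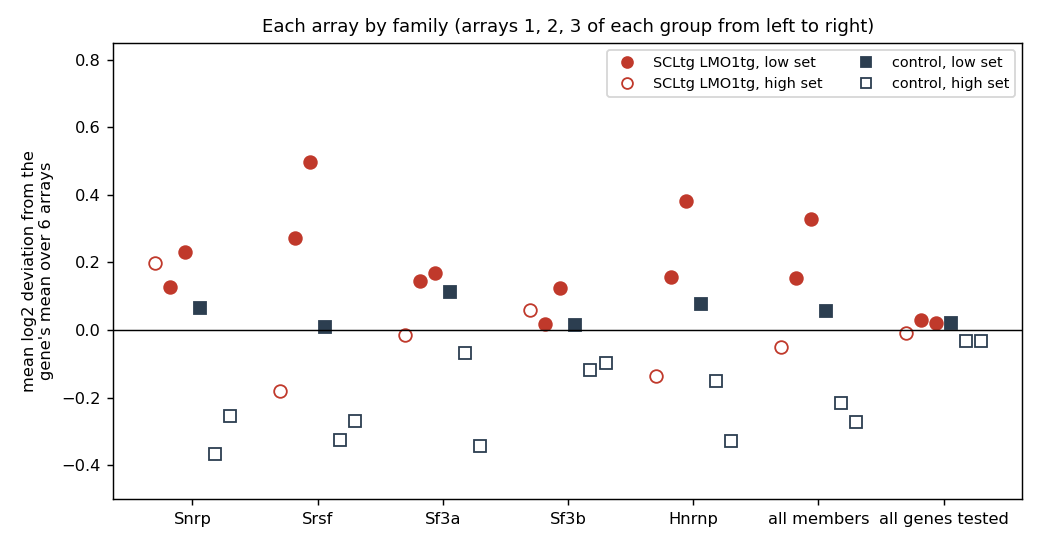
Mean over the genes of a family of each array's log2 deviation from the gene's mean over 6 arrays, with red circles for SCLtg LMO1tg and dark squares for control, filled for the low and open for the high hybridization set. Within either set the SCLtg LMO1tg arrays lie above the control arrays for all members together, while all genes tested stay near 0.

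Within each hybridization set the members again tended upward, with a median of 0.17 over low-set arrays and of 0.14 over high-set arrays, and 28 of 44 members (63.6%) were above 0 in both, where 30.4% of all genes and 44.2% of those in the top 25% by level were. These comparisons rest on 2 arrays against 1 and carry no test. *Snrp* genes had a median of 0.09 in the low and 0.55 in the high set. *Srsf* genes had 0.35 and 0.05, and *Hnrnp* genes 0.18 and 0.08. *Snrpg* had 0.04 and 0.86, whereas *Srsf2* differed by 0.71 and −0.02, and *Srsf5* by 0.36 and −0.83. *Snrpa1*, with 0.39 and 0.76, and *Srsf1*, with 0.53 and 0.42, were above 0.3 in both. With the set as a block in limma 0 members were called, 39 were above 0, and their median was 0.18. That the families differ between the sets was not tested.

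**Figure D5:**
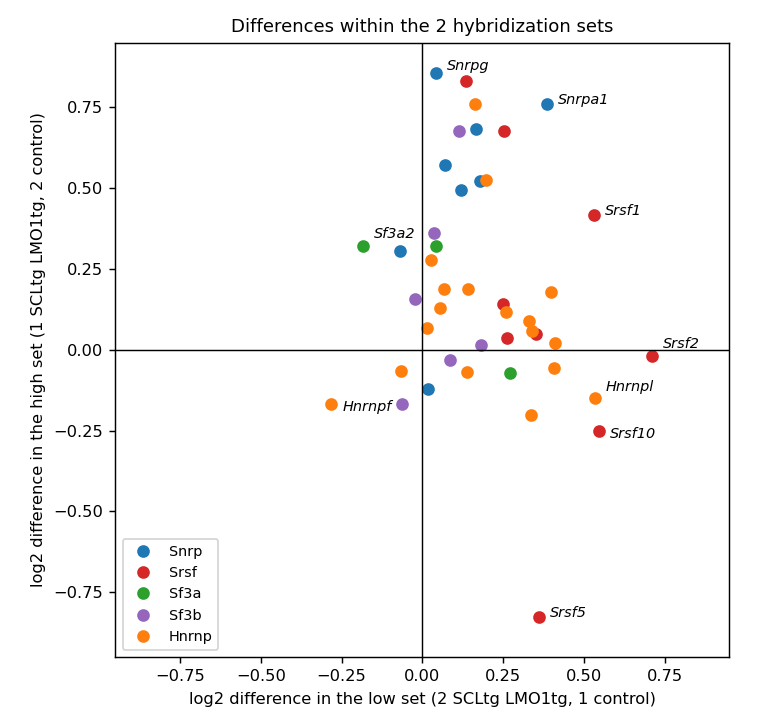
Log2 difference of each member within the low set (x axis, 2 SCLtg LMO1tg arrays and 1 control) against that within the high set (y axis, 1 and 2 arrays), coloured by family. The upper right field holds 28 members, and Srsf5 lies lowest at −0.83 on the y axis.

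Other probe sets of the same genes, which the choice by level had left unused, gave a second reading from the same RNA. Of 61 unused probe sets past the filter, 48 had a difference above 0 and the median was 0.29. Over all 105 members' probe sets past the filter, 87 were above 0 (82.9%, against 49.8% of 12584 probe sets tested), and 0 were called. The 3 probe sets of *Snrpa1* ranged from 0.47 to 0.74, the 6 of *Srsf1* from 0.09 to 0.88 and the 5 of *Srsf3* from 0.19 to 0.94. Of 27 genes with more than 1 such probe set, 17 had all of them above 0, 1 (*Sf3b4*) all below, and 9 had both signs. Those 9 included *Srsf2*, from −0.27 to 0.56, *Snrpd3*, from −0.10 to 0.51, and *Hnrnpab*, from −0.27 to 0.65. In *Srsf2* only the probe set used was above 0. Its others were at −0.27, −0.08 and −0.08, and the mean of its probe sets differed by 0.032.

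Splicing genes outside these name families were read from a list of 126, of which 101 were tested. None was called by limma or by rank products, 12 lay higher and 0 lower at an unadjusted p under 0.05, and 78 (77.2%) had a difference above 0 with a median of 0.17. Beside these stand 6.3% and 3.14% of all genes at that p, and 48.7% of all genes above 0. In the top 25% by level 72.3% were above 0, with a median of 0.15. That class is not a like comparison, since the list was not limited by level. *Bcas2*, for example, averaged 5.73 and 5.33 in the 2 groups, while the top 25% began at 7.85. In the lower classes 26.9%, 39.2% and 56.5% of genes were above 0. *Luc7l2*, a U1-associated factor, was at 9.14, 9.65 and 9.57 against 9.02, 8.84 and 8.74, a difference of 0.59 (SE 0.17, adjusted p = 0.324). *Rbm17*, which acts in choosing the end of an intron, was at 8.35, 8.58 and 8.84 against 8.21, 8.03 and 7.68, a difference of 0.62 (SE 0.19, adjusted p = 0.340). In neither did the groups overlap. The largest difference was that of *Tra2a*, an SR-like activator, at 0.95 (SE 0.32, adjusted p = 0.387), and its relative *Tra2b* differed by 0.52 (SE 0.23, adjusted p = 0.526), both with overlapping groups. *Snrnp70*, the U1 protein, differed by 0.69 (SE 0.25, adjusted p = 0.431), and *Prpf19*, of the complex that activates the spliceosome, by 0.68 (SE 0.24, adjusted p = 0.436). *Phf5a*, which sits in the SF3B complex beside the *Sf3b* products, differed by 0.38 (SE 0.17, adjusted p = 0.526).

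By sublist, the splice site recognition factors stood highest, with 10 of 11 above 0 and a median of 0.34. Of them 4 lay higher at an unadjusted p under 0.05, where 6.3% of all genes did. All 7 kinases of SR proteins were above 0, with a median of 0.17, and *Clk4* and *Clk1*, which phosphorylate SR proteins in the nucleus, differed by 0.49 (SE 0.38, adjusted p = 0.662) and 0.23 (SE 0.29, adjusted p = 0.769). *Clk4* was at 5.52, 6.51 and 6.63 against 6.40, 5.86 and 4.93, and differed by 0.095 without control 3 and by 0.15 when the set entered the fit as a block. The other regulators of alternative splicing had 20 of 23 above 0 and a median of 0.23, led by *Ewsr1* at 0.56 (SE 0.18, adjusted p = 0.387) and the neural repressor *Ptbp2* at 0.54 (SE 0.34, adjusted p = 0.620). The LSm proteins, most of which belong to the ring that binds U6 RNA, had 4 of 5 above 0 and a median of 0.22. Among them *Lsm8* differed by 0.42 (SE 0.14, adjusted p = 0.396) and *Lsm4* by 0.35 (SE 0.16, adjusted p = 0.534). Proteins of the exon junction complex had 4 of 5 and a median of 0.20, with *Rbm8a* at 0.48 and *Pnn* at 0.40. The remaining sublists were the SMN complex that assembles snRNPs (6 of 10 above 0, median 0.17, with *Strap* at 0.34 and *Prmt5* at 0.30), particle proteins (9 of 13, 0.17), the Prp19 complex and catalytic step factors (12 of 18, 0.09, with *Bcas2* at 0.40) and SR-like proteins (6 of 9, 0.04).

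When limma was allowed to weight the arrays, from 0.44 for control 1 to 4.96 for SCLtg LMO1tg 2, 7 members passed (15.9%, where 6.29% of all genes did). These were *Snrpa1* (adjusted p = 0.017), *Sf3b6* (adjusted p = 0.035), *Snrpd3* (adjusted p = 0.037), *Srsf2* (adjusted p = 0.041), *Srsf1* (adjusted p = 0.046), *Srsf9* (adjusted p = 0.049) and *Hnrnph3* (adjusted p = 0.0498), each higher in the arrays labelled SCLtg LMO1tg. For *Srsf2* this direction is that of the probe set used alone, as its other probe sets past the filter were below 0 without weights. The other probe sets of *Snrpd3* were at 0.06 and −0.10 without weights, and the mean of its probe sets differed by 0.16. That mean differed by 0.28 for *Sf3b6*, 0.61 for *Snrpa1* and 0.66 for *Srsf1*, whose probe sets past the filter were all above 0. The weights were estimated from the same 6 arrays, with 1 array taking over 10 times the weight of another, and without them 0 members passed. The 6.29% covers genes of all levels and was not matched to the members by level.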

How the data were processed

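Thymocyte RNA was amplified, by the study's methods, and hybridized to 6 Affymetrix mouse arrays. The deposited values are log2 intensities per probe set, computed by the authors for 22690 probe sets with RMA in affy (no version is given in the sources used here), and precision is limited by having 6 arrays. The study also filtered by MAS5 absent calls, which are not used here. A single gene is annotated for 20393 probe sets, more than 1 for 691, and no gene for 1606. Probe sets at or above the 40th percentile of the array in at least 3 arrays were kept, and each gene was read by the probe set with the highest mean.

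Groups were compared with limma 3.58.1 (R 4.3.3) over 8693 genes, with Benjamini-Hochberg adjustment at 0.05 and no covariate, and with rank products (9 pairwise differences, 100 permutations, percentage of false positives under 0.1). Both were tested on simulated data. Same-numbered arrays had residual correlations of −0.64, 0.01 and −0.38, so numbers were not taken as pairs. Values were named for members passing the test, for *Snrpb* and *Snrpn*, for the 5 members per family with the largest absolute difference, and for the 2 largest in each sublist of other splicing genes. *Srsf5*, *Hnrnpf*, *Hnrnpu* and other members given by a difference alone, and *Ptprc*, lie outside this rule. The members and lists were chosen with earlier results of these data known. Alternatives were other filters, normalizations, variance models, array weights, blocks, means of probe sets and leaving out each array.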

Additional observations from a re-analysis of the deposited data

How the results depend on the processing

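No member passed under 16 of the 17 alternatives, among them no filter, the 60th percentile filter, both other scalings, rank products and an adjusted p under 0.1. Array weights called 7 members, 8 of the other splicing genes and 547 of all genes. With the replicate number as a block, 0 members and 9 genes in all were called and the members' median stayed at 0.31. The hybridization set as a block called 28 genes, another quantile normalization 31, rank products 87 and the higher threshold 33. Leaving out each array in turn gave 7 to 27 genes in all and 0 members, and 0 or 1 of the other splicing genes (*Prpf19*, without control 1). The median of *Sf3b* was −0.077 after quantile normalization and ran from 0.071 to 0.18 with arrays left out. Signs turned for 11 members under 1 or more alternatives. Among genes named by the rule these were *Sf3b1* (−0.079 with quantile normalization, −0.11 with the set as a block, −0.17 to 0.23 with arrays left out), *Sf3b3* (−0.074 with quantile normalization, −0.12 to 0.27 with arrays left out), *Sf3b2* (−0.072 to 0.43 with arrays left out), *Sf3b5* (0.068 with the set as a block, −0.21 to 0.12 with arrays left out), together with *Clk1* of the other splicing genes (−0.032 with the set as a block, −0.039 to 0.51 with arrays left out). The other 7 members were *Hnrnpa1* (−0.14 to 0.14 over the alternatives), *Hnrnpc* (−0.023 to 0.11), *Hnrnpf* (−0.51 to 0.15), *Hnrnpul1* (−0.095 to 0.26), *Sf3b4* (−0.18 to 0.099), *Snrpc* (−0.10 to 0.12) and *Srsf5* (−0.28 to 0.23). The cause was not tested. *Snrpn*, with a mean of 5.89 over the arrays, lay nearest to the filter on low values, and the 60th percentile filter left it out.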
